A study of Rattus norvegicus with 8 samples.

Results

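The circadian clock genes were read in the dentate gyrus (DG) of ovariectomized (OVX) rats after status epilepticus (SE), and the question was which of them differed between rats replaced with estradiol (E2), the CES group, and rats given oil, the COS group. The group comprised 10 genes chosen by name, Per1, Per2, Per3, Cry1, Cry2, Clock, Arntl, Dbp, Nr1d1 and Nr1d2. On the array they were represented by 12 of the 43379 non-control spots and by 10 of the 35199 gene names. Of the 10 genes, 9 gave a signal in all 8 rats that could be tested, and Clock did not. In CES rats Dbp was 4.72-fold higher than in COS rats, Cry1 was 1.73-fold lower and Per1 was 1.48-fold lower, and the other 6 tested clock genes did not pass the threshold. The rise of Dbp was called in 23 of 24 alternative analyses, the fall of Cry1 in 15 and that of Per1 in 10, and after loess normalization the falls were 1.27-fold for Cry1 and 1.12-fold for Per1, with no call.

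All 8 animals were adult female Sprague-Dawley rats that had been ovariectomized and had undergone SE induced with kainic acid, a glutamate receptor agonist. The 4 COS rats received oil. The 4 CES rats received E2 replacement, which the records name EB and describe as 4 doses of 2 μg of estradiol given every 24 h. By the records, the dose of kainic acid was 16 mg/kg and pentobarbital stopped the seizures 5 h later. Both groups therefore lacked ovarian hormones apart from the replacement, and no rat without SE entered the comparison. The records and the methods of the study differ in whether the last E2 doses came before or after SE, in the drug that ended SE and in the dose of kainic acid, and the methods give more than 1 time of tissue collection. Light and dark alternated every 12 h in the animal room, and lights came on at 7 in the morning. The methods place the daily injections at the same morning hour in every group, with SE and tissue collection timed from them, but the collection times they give differ and the hour at which each rat was sampled is not given in the sources used here. The part of the hour of collection in genes that vary over the day was not tested.

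The circadian clock is a transcriptional feedback loop found in nearly every cell. CLOCK and BMAL1, the product of Arntl, pair and bind E-box sequences to activate the Per and Cry genes, whose proteins return to the nucleus and repress that activation. Nr1d1 and Nr1d2 encode REV-ERB receptors, which repress Arntl through elements of another kind. Dbp, a direct target of CLOCK and BMAL1, encodes a PAR bZIP activator that binds the D-box, a site also present near Per genes, together with the related activator TEF and in competition with the repressor NFIL3. Forebrain tissue outside the suprachiasmatic nucleus, the hippocampus included, also holds cycling clock genes. Per1 is in addition a known target of CREB and of the glucocorticoid receptor, so that its transcript responds to neuronal activity and to stress hormones.

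The promoters of 4 genes are shown because these genes carry the result or the elements through which the loop is wired. Dbp and Tef are the D-box activators whose transcripts were higher in CES rats, Per2 holds a D-box and Arntl holds a REV-ERB element. Each sequence is the 250 bases before the annotated start of the gene, 5′ to 3′ on the strand of the gene, from RefSeq on build GRCr8. Capitals mark matches to the motifs searched. Dbp lies at chr1:105312006-105312255 on the plus strand, Tef at chr7:115206577-115206826 on the plus strand, Per2 at chr9:99496994-99497243 on the minus strand and Arntl at chr1:176766078-176766327 on the plus strand.
Dbp: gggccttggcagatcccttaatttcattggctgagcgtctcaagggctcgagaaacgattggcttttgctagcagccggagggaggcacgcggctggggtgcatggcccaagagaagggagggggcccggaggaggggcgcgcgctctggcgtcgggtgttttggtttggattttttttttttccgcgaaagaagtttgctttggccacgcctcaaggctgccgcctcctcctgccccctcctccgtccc
Tef: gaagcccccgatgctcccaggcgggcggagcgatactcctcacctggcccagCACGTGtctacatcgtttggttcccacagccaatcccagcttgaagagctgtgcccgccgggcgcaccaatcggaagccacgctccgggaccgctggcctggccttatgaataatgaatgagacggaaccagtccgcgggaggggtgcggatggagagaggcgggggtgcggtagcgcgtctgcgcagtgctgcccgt
Per2: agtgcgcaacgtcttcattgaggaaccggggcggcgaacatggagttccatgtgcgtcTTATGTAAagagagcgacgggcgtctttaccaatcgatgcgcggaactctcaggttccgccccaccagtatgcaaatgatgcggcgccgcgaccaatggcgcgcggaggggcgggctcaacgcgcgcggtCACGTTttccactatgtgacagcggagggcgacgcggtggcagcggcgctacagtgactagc
Arntl: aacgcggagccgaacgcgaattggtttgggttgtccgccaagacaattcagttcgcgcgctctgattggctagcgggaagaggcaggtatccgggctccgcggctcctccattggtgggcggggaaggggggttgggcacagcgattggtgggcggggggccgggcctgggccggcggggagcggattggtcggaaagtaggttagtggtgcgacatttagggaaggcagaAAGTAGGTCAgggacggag
The motifs searched, on both strands, were the E-box CACGTG, its variant CACGTT, the D-box forms TTATGTAA and TTATGCAA, the REV-ERB element (AAN followed by TAGGTCA) and the CREB site TGACGTCA. CACGTG and TGACGTCA read the same on both strands, and no matches overlapped. The Per2 window held the D-box TTATGTAA, starting 192 bases before the gene start, and CACGTT at 62 bases. The Arntl window held the REV-ERB element, as AAGTAGGTCA, 19 bases before the start, and the Tef window held CACGTG at 198 bases. Of all 33469 windows of this length, 5.59% held CACGTG, 4.07% held CACGTT, 0.828% held TTATGTAA, 0.789% held TTATGCAA, 0.206% held the REV-ERB element and 1.59% held TGACGTCA. RefSeq windows were matched for 9 of the 10 clock genes, all but Cry1. In 1 of the 2 Nr1d1 windows CACGTG was found 191 bases before the start, and CACGTT was found on the opposite strand in the other Nr1d1 window and in the Cry2 window. The Dbp, Per1, Per3, Clock, Nr1d2 and Nfil3 windows held none of these letters, which says nothing of elements farther from the start or within the gene.

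Each of 4 arrays carried total RNA from 2 rats of the same group, 1 per dye, with replicates 1 and 3 in Cy3 and replicates 2 and 4 in Cy5. The dye was thus balanced between COS and CES, while each array held rats of 1 group. A spot was valid in a rat when its foreground fluorescence was at least 2 times its local background, which held for 74.6 to 88.9% of spots in COS rats and 70.7 to 81.5% in CES rats. No spot was saturated. The level of a gene is given below as the log2 of its background-subtracted signal over the median signal of all valid spots read in that dye on that array, so that 0 is the median spot and 1 unit is a doubling. A level of a gene can be set against the same gene in another rat, not against the level of another gene. Differences are CES minus COS on the log2 scale, fitted by limma over all 20787 genes with the p-values adjusted over all of them by the Benjamini-Hochberg method and a threshold of 0.05.

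Among the 9 clock genes tested, 1 was called higher in CES, where 5.74% of all genes tested were called higher, and 2 were called lower, where 28.1% of all genes were called lower. The share of members called was thus near that of the whole array, and what set the clock genes apart from one another was the direction and size of single members. The same 3 genes had no overlap between the groups. All CES rats lay above all COS rats for 1 clock gene, against 1.74% of all genes, and below them for 2, against 20.3% of all genes. The median difference of the 9 clock genes was -0.22, and the median over all genes was -0.25. Since this centre of all genes moved with the scaling of the arrays, from -0.25 to 0.04 after loess normalization, centred differences are also given. A centred difference is the fitted difference minus this median. It stands beside the fitted one for each tested clock gene and for Tef, Nfil3, Csnk1d, Csnk1e and Btrc. Differences of other single genes are printed uncentred. Of all genes tested 33.9% were called in either direction. After loess the array had 15.6% of genes called higher and 10.6% called lower, and of the clock genes 1, Dbp, was called higher and 0 were called lower, where at an unadjusted p under 0.05 Per2, Nr1d1 and Cry1 also passed. The separation moved with this scaling too. After loess all CES rats lay above all COS rats for 3 clock genes, Dbp, Per2 and Nr1d1, against 20.8% of all genes, and below them for 0, against 13.4% of all genes, since the groups then overlapped for Per1 and Cry1.

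**Figure D1:**
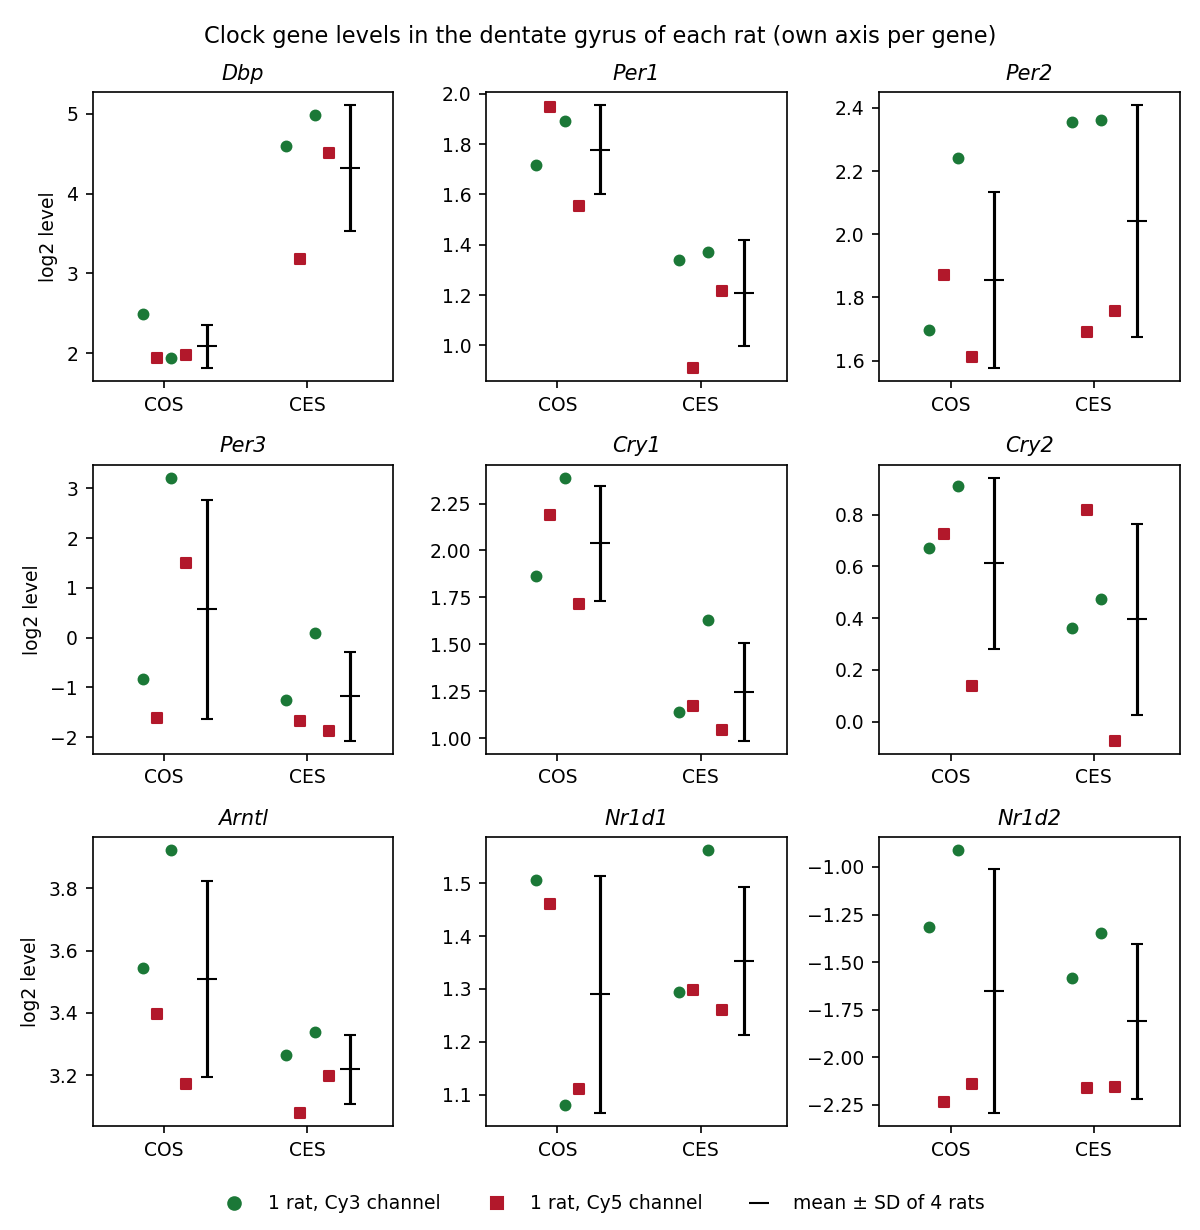
Log2 level of each tested clock gene in each rat, with a separate vertical axis for every gene, COS and CES rats side by side. Circles are rats labeled with Cy3, squares rats labeled with Cy5, and bars give the mean ± SD of 4 rats. The groups do not overlap for Dbp, Per1 and Cry1.

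Dbp showed the largest rise of the clock genes and the 16th largest of all 20787 genes tested. Its log2 level was 2.49, 1.94, 1.93 and 1.97 in COS replicates 1 to 4 and 4.60, 3.18, 4.99 and 4.51 in CES replicates 1 to 4. The lowest CES rat, replicate 2, was still above the highest COS rat, replicate 1, and 3 CES rats lay close together above 4. The mean was 2.08 ± 0.27 (SD, n = 4) in COS and 4.32 ± 0.79 in CES, a difference of 2.24 (standard error 0.30, limma adjusted p = 0.00354, 95% interval 1.57 to 2.90). The centred difference was 2.49. Without centring, the difference was 2.58 within Cy3 and 1.89 within Cy5. The rise was called under 23 of 24 alternative analyses, with values from 1.96 to 2.64, and missed the threshold in the methods' t-test (adjusted p = 0.0791), in which no gene of the array passed. Without CES replicate 2 the difference was 2.57. The probe matched rn4 chr1:96178020-96178079, was well above background in all 8 rats and was the only Dbp probe on the array.

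The other D-box binding genes moved in opposite directions. Tef, which encodes an activator of the same PAR bZIP family as DBP, had log2 levels of -0.28, -0.50, 0.12 and -0.995 in COS replicates 1 to 4 and 1.03, -0.06, 1.27 and 0.62 in CES replicates 1 to 4. CES replicate 2 was the lowest of its group and lay below COS replicate 3, so the groups overlapped by this pair. The difference was 1.13 (standard error 0.21, limma adjusted p = 0.00548), and the centred difference 1.38.

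Nfil3, which encodes a bZIP repressor of the same sites, had log2 levels of 3.90, 4.68, 4.20 and 3.84 in COS rats and 1.43, 2.94, 1.80 and 1.33 in CES rats. Every CES rat was below every COS rat, with CES replicate 2 again the closest to COS. The difference was -2.28 (standard error 0.33, limma adjusted p = 0.00368), and the centred difference -2.03. It was called in 23 of 24 alternatives, and the rise of Tef in 21 of 23.

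Read within each rat, the log2 level of Dbp minus that of Nfil3 ran from -2.74 to -1.41 in COS rats and from 0.24 to 3.19 in CES rats, a shift of 4.52. Only the shift can be interpreted here, because different probes have no common zero. Scaling a channel by a constant does not move it. For Tef minus Nfil3 the shift was 3.41. Loess and quantile normalization act by intensity and can move these shifts. After loess the fitted differences were 2.37 for Dbp, 0.98 for Tef and -1.77 for Nfil3. No test was made of these shifts or of the within-rat shifts given below, whose genes were chosen with their differences known. Hlf, which encodes the remaining PAR bZIP activator, was not found among the gene names of the array.

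**Figure D2:**
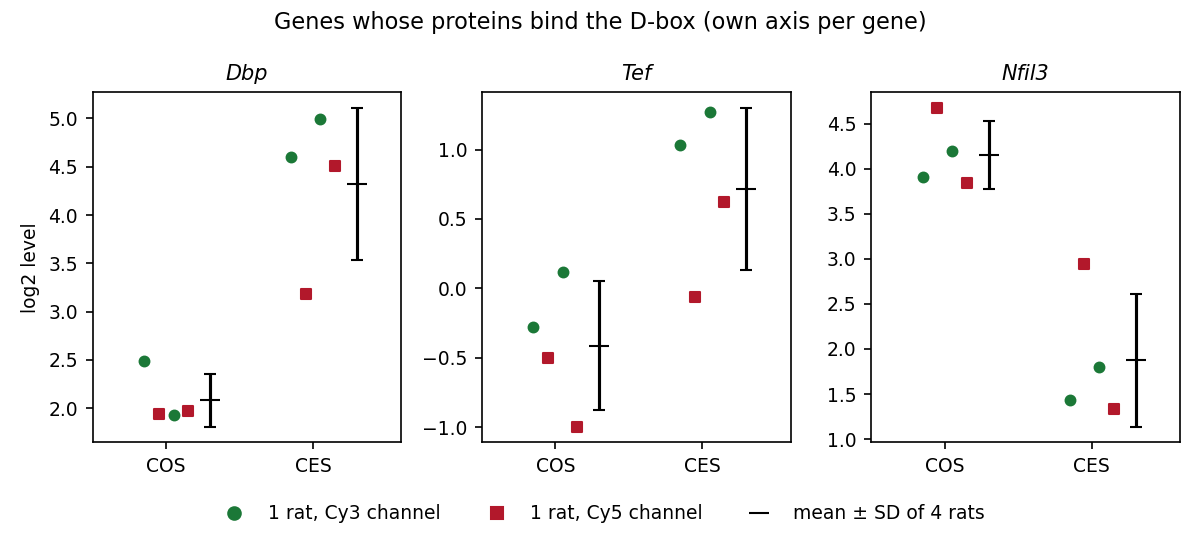
Log2 level of Dbp and Tef, which encode D-box activators, and of Nfil3, which encodes a D-box repressor, in each rat, each gene on its own axis. Circles are Cy3 rats, squares are Cy5 rats and bars are the mean ± SD of 4 rats. Dbp and Tef were higher and Nfil3 was lower in CES, and CES replicate 2, a Cy5 rat, lay nearest to the COS rats for all of them.

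Of the Per genes, which encode repressors of CLOCK and BMAL1, Per1 fell. Its log2 level was 1.72, 1.95, 1.89 and 1.55 in COS replicates 1 to 4 and 1.34, 0.91, 1.37 and 1.22 in CES replicates 1 to 4. All CES rats were below all COS rats, with the narrowest gap between COS replicate 4 and CES replicate 3. The difference was -0.57 (standard error 0.17, limma adjusted p = 0.0287, 95% interval -0.95 to -0.19), -0.45 within Cy3 and -0.69 within Cy5. The centred difference was -0.32. Per1 was lower under each of 24 alternatives but was called in 10 of them. After loess normalization the difference was -0.16 (adjusted p = 0.349), and without COS replicate 1, 2, 3 or 4 or without CES replicate 1 the limma adjusted p ran from 0.0525 to 0.120. The Per1 probe lies between rn4 chr10:55867840 and 55868424, a span longer than a single probe.

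Per2, the other Per gene with a strong part in the loop, did not pass the threshold. Its log2 level was 1.70, 1.87, 2.24 and 1.61 in COS replicates 1 to 4 and 2.35, 1.69, 2.36 and 1.76 in CES replicates 1 to 4. The 2 Cy3 rats of CES were the highest, the 2 Cy5 rats of CES lay among the COS rats, and the groups overlapped. The difference was 0.19 (standard error 0.18, limma adjusted p = 0.461, 95% interval -0.22 to 0.60), 0.39 within Cy3 and -0.02 within Cy5. The centred difference was 0.44, and after loess normalization the fitted value was 0.49 (standard error 0.15, limma adjusted p = 0.05003, just above the threshold), with all CES rats above all COS rats on that scale. Per2 was higher in CES in all 24 alternatives and called in none. Within a rat, Per2 minus Per1 ran from -0.08 to 0.35 in COS and from 0.54 to 1.02 in CES, a shift of 0.75. This shift also holds the fall of Per1 and was not tested. The Per2 probe matched rn4 chr9:90645610-90645669, and the Per2 promoter window is the one with the D-box printed above.

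Per3, whose product is the PER protein least required for rhythms, rested on a single usable probe and on a single array. Its log2 level was -0.82, -1.61, 3.21 and 1.50 in COS replicates 1 to 4 and -1.26, -1.68, 0.10 and -1.88 in CES replicates 1 to 4. COS replicates 3 and 4, which shared array 2, were the highest of all rats, and the other COS rats lay among the CES rats. The difference was -1.75 (standard error 0.85, limma adjusted p = 0.137), and the centred difference -1.50. Without both rats of array 2 the fitted difference was 0.04 (standard error 0.39, limma adjusted p = 0.956). At that probe (rn4 chr5:168152851-168152910) the foreground was 77.8 and 52.5 times background in COS replicates 3 and 4 and 4.06 to 9.70 times background in the other rats. The other Per3 probes were valid in some rats only and well above background in 0 or 1 rat, so they do not show whether the rise was there. The probe A_43_P16143 gave 1.98 and 2.42 times background in those rats and 1.74 to 3.59 over all rats, and A_44_P407318 gave 2.27 and 1.38, the first being its highest value, against 1.24 to 1.76 in the other rats. Neither of the latter was valid in every rat, so their Per3 levels could not be tested.

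**Figure D3:**
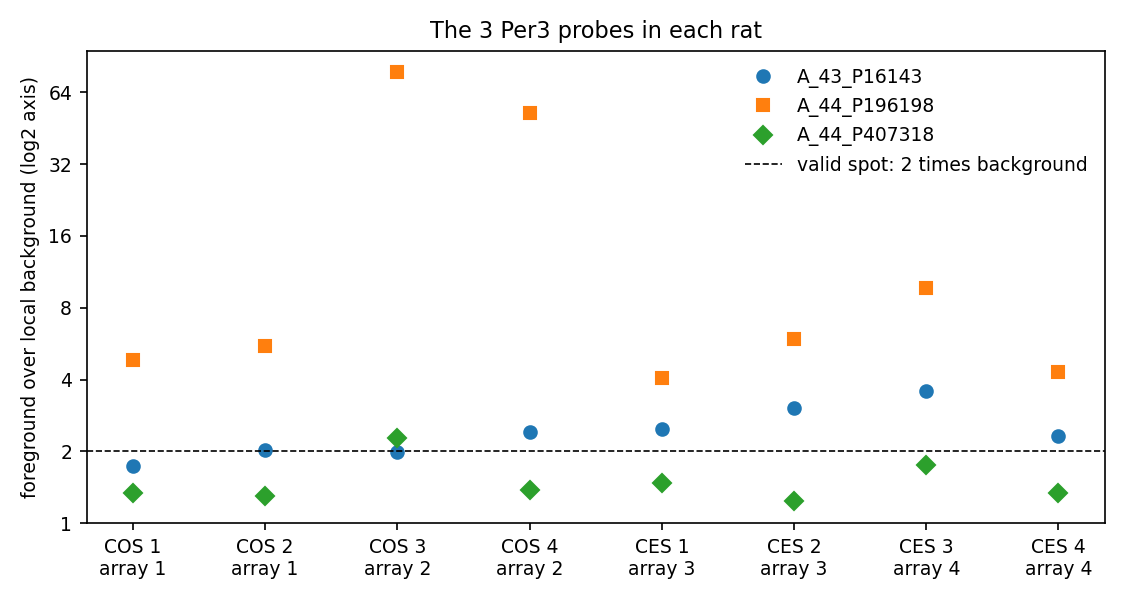
Foreground over local background, on a log2 axis, of each of the 3 Per3 probes in each rat, with rats in order of array. The dashed line marks the limit for a valid spot, 2 times background. The probe A_44_P196198 stood at 77.8 and 52.5 in the 2 COS rats of array 2 and at 9.70 or less in all others, and the other probes, valid in some rats only, were at most 2.42 there.

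Of the Cry genes, which encode the partners of PER in repression, Cry1 fell. Its log2 level was 1.86, 2.19, 2.39 and 1.71 in COS replicates 1 to 4 and 1.14, 1.17, 1.63 and 1.05 in CES replicates 1 to 4. Every CES rat was below every COS rat, with CES replicate 3 just under COS replicate 4. The difference was -0.79 (standard error 0.20, limma adjusted p = 0.0151, 95% interval -1.24 to -0.35), -0.74 within Cy3 and -0.84 within Cy5. The centred difference was -0.54. Cry1 was lower in all 24 alternatives, from -1.04 to -0.35, and was called in 15. Its fall missed the threshold after loess normalization (-0.35, limma adjusted p = 0.0685), and without COS replicate 3 (adjusted p = 0.0976) or CES replicate 1 (adjusted p = 0.0745). The probe matched rn4 chr7:20708985-20709044.

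Cry2 had log2 levels of 0.67, 0.73, 0.91 and 0.14 in COS replicates 1 to 4 and 0.36, 0.82, 0.47 and -0.07 in CES replicates 1 to 4. Replicate 4 was the lowest rat of both groups, and the groups overlapped. The difference was -0.22 (standard error 0.23, limma adjusted p = 0.499, 95% interval -0.73 to 0.30), and the centred difference 0.03. Within a rat, Cry2 minus Cry1 ran from -1.57 to -1.19 in COS and from -1.15 to -0.35 in CES, a shift of 0.58. The Cry2 probe matched rn4 chr3:76802827-76802886.

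On the activating side, Arntl, which encodes BMAL1, had log2 levels of 3.54, 3.40, 3.92 and 3.17 in COS replicates 1 to 4 and 3.26, 3.08, 3.34 and 3.20 in CES replicates 1 to 4. The groups overlapped, and the CES rats lay within the lower part of the COS range except for replicate 2, which was below it. The difference was -0.29 (standard error 0.17, limma adjusted p = 0.205, 95% interval -0.66 to 0.08) and lay at the centre of all genes, with a centred difference of -0.04. In 4 of 24 alternatives its sign turned, without a call. The Arntl probe matched rn4 chr1:171161969-171162028. Dbp minus Arntl, the output against the activator within a rat, ran from -1.99 to -1.05 in COS and from 0.10 to 1.65 in CES.

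Clock itself gave no usable level. Its probe, between rn4 chr14:34247245 and 34248295, was valid in 4 COS rats and in 3 CES rats, was well above background in none, and stood at 1.80 to 4.46 times background. Npas2, which encodes a forebrain partner of BMAL1 that can take the place of CLOCK, was tested, and its difference of 0.59 did not pass the threshold (standard error 0.29, limma adjusted p = 0.146).

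The REV-ERB genes, whose products repress Arntl and which CLOCK and BMAL1 are known to drive, did not pass the threshold. Nr1d1 had log2 levels of 1.51, 1.46, 1.08 and 1.11 in COS replicates 1 to 4 and 1.29, 1.30, 1.56 and 1.26 in CES replicates 1 to 4. CES replicate 3 was the highest of all rats and the other CES rats lay inside the COS range. The difference was 0.06 (standard error 0.17, limma adjusted p = 0.802, 95% interval -0.32 to 0.45), and the centred difference 0.32. Its sign turned in 2 of 24 alternatives without a call, and after loess its CES rats all lay above its COS rats, at a difference of 0.35 (limma adjusted p = 0.0864).

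Nr1d2 was near the limit of the assay. Its log2 level was -1.32, -2.23, -0.91 and -2.14 in COS replicates 1 to 4 and -1.58, -2.16, -1.35 and -2.15 in CES replicates 1 to 4. The Cy3 rats of both groups were the higher ones, the groups overlapped, and the probe was well above background in 4 of 4 Cy5 rats and 0 of 4 Cy3 rats. The difference was -0.16 (standard error 0.17, limma adjusted p = 0.502, 95% interval -0.54 to 0.22), and the centred difference 0.09. The files give no rn4 position for this probe, and Nr1d1 was read between rn4 chr10:87543165 and 87543519.

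**Figure D4:**
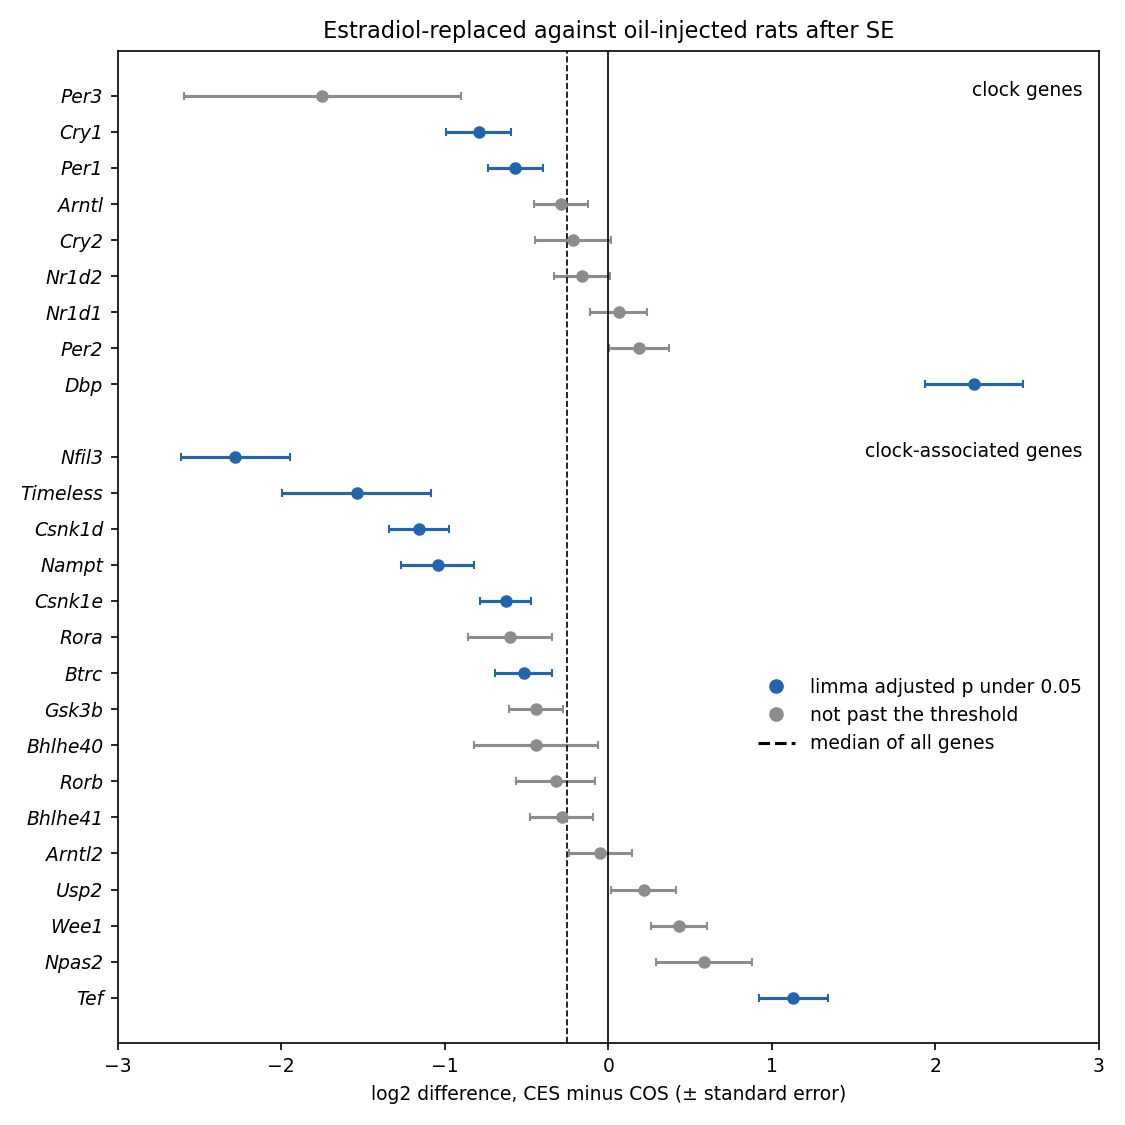
Fitted log2 difference, CES minus COS, of the 9 tested clock genes and of 16 of the 17 tested clock-associated genes, with bars of ± 1 standard error. Filled blue points passed a limma adjusted p of 0.05, grey points did not, and the dashed line is the median of all genes, -0.25. Dbp lies far to the right of the other genes, with Tef the next highest. Nfil3 lies farthest to the left, followed by Per3, whose wide bar reaches past Nfil3, and by Timeless.

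Around the core loop, 22 further genes were listed by their known part in the clock, of which 17 were on the array and tested. Of these 1 was called higher, Tef, where 5.74% of all genes were called higher, and 7 were called lower, where 28.1% of all genes were. No listed gene had all CES rats above all COS rats (1.74% of all genes), and 6 had all CES rats below all COS rats (20.3% of all genes). After loess, quantile or common-spot scaling the count called lower was 4, where 10.6% of all genes were called lower after loess. Their median difference was -0.44, or -0.19 relative to all genes. The 9 genes that did not pass ran from -0.60 to 0.59 and included the activators Npas2, Rora and Rorb and the repressors Bhlhe40 and Bhlhe41. Ciart, Cipc and Hlf were among the listed genes not found among the gene names.

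Genes of kinases and of a ubiquitin ligase part that act on PER proteins were among those that fell. Csnk1d and Csnk1e encode casein kinases that phosphorylate PER. The log2 level of Csnk1d was 1.73 to 2.24 in COS rats and 0.66 to 1.10 in CES rats, without overlap, and its difference was -1.16 (standard error 0.18, limma adjusted p = 0.00407). Csnk1e was 0.67 to 1.34 in COS rats and 0.22 to 0.66 in CES rats, with a difference of -0.63 (standard error 0.16, limma adjusted p = 0.0146). Csnk1e was called in 15 of 24 alternatives, and after loess it was -0.17 (limma adjusted p = 0.104).

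Btrc encodes the substrate-binding part of a ubiquitin ligase that marks PER for breakdown. It fell by 0.52 with overlap between the groups (standard error 0.18, limma adjusted p = 0.0459), and was called in 9 of 22 alternatives. The centred differences were -0.91 for Csnk1d, -0.38 for Csnk1e and -0.27 for Btrc. Gsk3b, another kinase of clock proteins, was -0.44 (standard error 0.16, limma adjusted p = 0.0595).

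Timeless, whose product binds clock proteins and acts in DNA replication, had a difference of -1.54 (standard error 0.46, limma adjusted p = 0.0281). Its CES levels were scattered, at -0.87, 0.78, 0.69 and -1.40 in replicates 1 to 4, against 0.92 to 1.74 in COS rats. Timeless was called in 10 of 23 alternatives. Nampt, a clock output that encodes the rate-limiting enzyme of NAD salvage, was 2.31 to 2.99 in COS rats and 1.20 to 1.96 in CES rats, with a difference of -1.04 (standard error 0.22, limma adjusted p = 0.00849). The outputs Wee1 and Usp2 did not pass the threshold.

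Because Per1 also answers to glucocorticoids, 8 genes were read, the receptor genes Nr3c1 and Nr3c2 and genes that glucocorticoids induce. Of these 1 was called higher, where 5.74% of all genes were, and 2 were called lower, where 28.1% were. All CES rats lay above all COS rats for 2 of the 8, both receptor genes (1.74% of all genes), and below them for 3 (20.3%). Nr3c2, which encodes the mineralocorticoid receptor, was higher in CES by 1.23 (standard error 0.22, limma adjusted p = 0.00515). Of the genes that glucocorticoids induce, Sgk1, a kinase gene, had a difference of -1.45 (standard error 0.24, limma adjusted p = 0.00415) and Errfi1, an inhibitor of the EGF receptor, one of -1.29 (standard error 0.22, limma adjusted p = 0.00465). The other 5 genes, among them Fkbp5, did not pass and ran from -0.22 to 0.35.

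Per1 is also induced by neuronal activity through CREB, and 5 of 7 listed activity-regulated genes could be tested. All 5 were called lower in CES, against 28.1% of all genes, and for 3 of them every CES rat was below every COS rat, against 20.3% of all genes. The count was 3 after loess, where 10.6% of all genes were called lower, 2 in the deposited log2 table and 1 without COS replicate 3. Egr1 and Arc were each called in 12 of 24 alternatives. Fos, the gene of an AP-1 subunit, differed by -4.25 (standard error 0.75, limma adjusted p = 0.00498) and Junb by -2.39 (standard error 0.33, limma adjusted p = 0.00368). Arc, Nr4a1 and Egr1 differed by -1.17, -1.17 and -0.90. The CES level of Fos was -0.12, 3.85, 0.36 and -0.02 in replicates 1 to 4, with replicate 2 alone near the COS rats, which ran from 4.40 to 5.94. Of the 19 genes called in these lists, clock genes included, CES replicate 2 was the CES rat nearest the COS mean for 10, among them Dbp, Tef, Nfil3, Fos and Junb, and CES replicate 3 for 7, among them Per1 and Cry1. The part of the activity-regulated and glucocorticoid-responsive genes in the Per1 and Dbp differences was not tested.

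The tissue label was read against markers of DG cells. With 28.1% of all genes called lower and 5.74% called higher, these counts are given as a description. Of 5 granule cell markers 4 were tested, and 3 of them were called lower, with C1ql2 at -1.23 and Dsp at -1.23, while Calb1 was not called. The summed level of the tested granule cell markers, on the log2 scale, ran from 3.24 to 3.80 in CES rats and from 3.78 to 4.57 in COS rats. Such a sum adds the linear levels of different probes, so the brightest probe weighs most. The neuronal sum was therefore close to Snap25 alone. Of 2 neuronal genes tested, Syt1 was called higher, by 0.58, and Snap25 was not. Of 4 astrocyte markers 2 were called higher, Aldh1l1 by 1.23 and Gja1 by 1.42, and 2 did not pass, among them Gfap at -1.22 and Aqp4 at 0.05. Of 5 microglial markers 2 were called lower, of 3 tested endothelial markers 2 were called lower, and of 4 oligodendrocyte and 4 choroid plexus markers limma called 0, with 0 at an unadjusted p under 0.05. The summed levels ran from 6.34 to 6.69 in COS and 6.25 to 7.05 in CES for astrocytes. In the same order they were 4.78 to 5.33 and 4.08 to 4.65 for microglia, and 4.13 to 4.50 and 3.70 to 4.20 for endothelium. For neurons they were 7.69 to 8.22 and 7.96 to 8.37, and for oligodendrocytes 7.74 to 8.66 and 8.25 to 8.81. For choroid plexus they were 4.50 to 7.17 and 5.13 to 5.92. The 7.17 was COS replicate 2 alone. COS replicates 1, 3 and 4 were at 4.84, 4.66 and 4.50, below every CES rat. Enpp2 was 6.98 in COS replicate 2 and 4.40 to 4.60 in the other COS rats. Of these summed levels, only the microglial ones did not overlap between the groups, where 20.3% of single genes had all CES rats below all COS rats. The microglial gap was narrow, from 4.65 in CES to 4.78 in COS, and the sums were not read under other scalings. Of the microglial genes, Itgam and Csf1r separated the groups, and Aif1, Cx3cr1 and Ptprc overlapped. In whole DG tissue, fewer cells of a type and less RNA per cell cannot be told apart. The part of the astrocyte, granule cell, microglial and endothelial shifts in the clock gene differences was not tested. Nor was that of the choroid plexus level of COS replicate 2.

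The centred difference of Dbp ran from 2.23 to 2.84 over 24 alternatives, Per2 from 0.31 to 0.59, Nr1d1 from 0.18 to 0.42, Per1 from -0.40 to -0.20 and Cry1 from -0.74 to -0.39, and none of these ranges crossed 0. The corresponding ranges of Cry2 (-0.16 to 0.22), Arntl (-0.11 to 0.03) and Nr1d2 (-0.03 to 0.45) did.

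**Figure D5:**
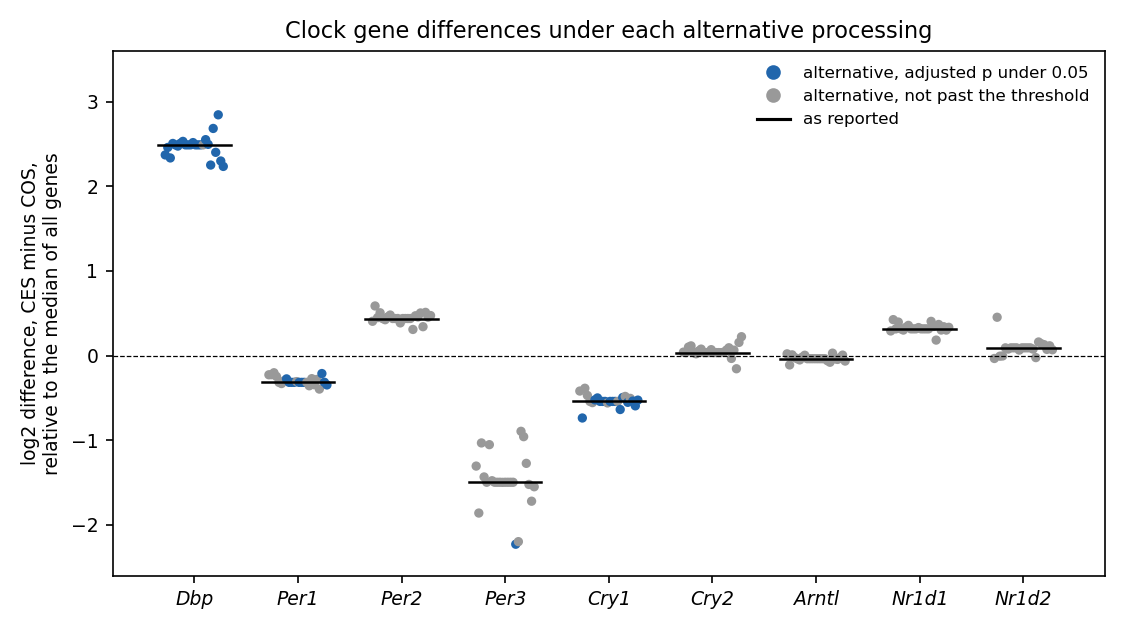
Log2 difference, CES minus COS, of each tested clock gene relative to the median of all genes, under the alternative ways of processing or of leaving out a rat. Each point is 1 alternative, blue where the adjusted p was under 0.05, and the black bar is the value as reported. Dbp was 2.23 at its lowest, while Per1 and Cry1 stayed below 0 with calls under some alternatives and not others.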

How the data were processed

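As deposited, the scanner files hold spot intensity and local background per channel, written by Agilent Feature Extraction 10.7.3.1 before any normalization by the authors. The authors also deposited log2 values, equal to the log2 of median signal minus background less a constant per rat. RNA of 8 rats, 4 COS and 4 CES, was read on 4 arrays of 1 slide. Whether the labelled replicates were processed in batches other than the array is not given in the sources used here.

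Spots with foreground at least 2 times background were valid, 30690 to 38553 per rat. The 1593 spots marked as outliers in any channel were left out. The mean signal minus background was divided by the median of same-label valid spots, spots valid in every rat were averaged by gene and the log2 was taken, which kept 26294 spots and 20787 genes. Genes were matched by the name in the files, and probe positions are those of rn4 in the files. Promoters came from RefSeq on GRCr8, and coordinates were not converted between builds. The CES and COS rats were compared in limma 3.58.1 (R 4.3.3, statmod 1.5.0), with dye as a fixed term and array as a random block (correlation 0.0044), two-sided. The median standard error was 0.20, and the number of arrays limits the precision. The fit was also run on simulated levels with independent noise and known changes. That run checks the code and bears on no call reported here.

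All 10 clock genes are named, and of the pathway lists those past the threshold, up to the 8 largest, apart from listed genes that are not reported here. Members and lists were chosen with earlier results of these data known. Alternatives covered background correction, normalization, filters on dim and outlier spots, probe choice and naming, the array and dye terms, the replicate block, the methods' t-test, the log2 values as deposited, and dropping 1 rat at a time. Leaving out array 2 was chosen after seeing the data.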

Additional observations from a re-analysis of the deposited data

Results flagged for a closer look

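The gap test for single values (Dixon's ratio above 0.829) was run in each group, COS and CES. It covered the 19 genes called in the pathway lists, clock genes included, and the 6 tested clock genes not called. In 3 cases 1 rat stood apart from the other 3 of its own group. Uncalled genes of the other lists were not examined in this way. For Dbp it was COS replicate 1, with a log2 level of 2.49 against 1.93 to 1.97 in the other COS rats (ratio 0.929), and the difference without that rat was 2.28 (limma adjusted p = 0.0177). For Nr1d1 it was CES replicate 3, at 1.56 against 1.26 to 1.30 (ratio 0.870). For Fos it was CES replicate 2, at 3.85 against -0.12 to 0.36 (ratio 0.881). Chance marks about 1 in 20 such groups.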

How the results depend on the processing

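Centred on the median of all genes, Dbp kept its rise and Per1 and Cry1 their fall in all 24 alternatives, while the calls of Per1 and Cry1 depended on the setting. Over 39 tested genes of the 4 lists, 796 of 923 single-gene results kept direction and side of the threshold, 107 lost and 20 gained a call, and none that was called turned in sign. Where a value changed, the cause was not tested unless the setting itself shows it.

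Genes called higher, 1194 in all, became 129 with normexp background correction, 3241 after loess, 3018 after quantile normalization, 3380 when scaled over spots valid in all rats, 400 with no filter, 3210 in the deposited log2 table and 0 in the methods' t-test, and ran from 272 to 1791 when a rat was left out. Genes called lower, 5848 in all, became 446, 2204, 2249, 1778, 2698, 1923 and 0 in the same order, 2669 with foreground at least 3 times background, and ran from 1081 to 6794 when a rat was left out. Among single rats left out, COS replicate 3 gave the fewest calls in both directions. Before adjustment the methods' t-test passed 783 genes higher and 5315 lower at p under 0.05, among them 1 clock gene higher and 2 lower. The share of calls that were higher moved from 17.0% to 59.5% after loess, 57.3% after quantile normalization, 65.5% on the common spots and 62.5% in the deposited table, as the median of all genes moved from -0.25 to 0.04, 0.06, 0.14 and 0.12. The median log2 difference of the clock genes, -0.22, became 0.0470 after loess, 0.0507 after quantile normalization, 0.18 on the common spots and 0.18 in the deposited table, and ran from -0.37 to -0.11 when a rat was left out.

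Of the clock genes, 1 was called higher under every alternative except the t-test, with 0. The 2 called lower became 0 with normexp, loess, quantile, common spots, no filter, the deposited table, the t-test and without array 2, and 1 with the processed signal and with foreground at least 3 times background. They were 0 to 2 when a rat was left out. Of the clock-associated genes, the 1 called higher became 0 with normexp and the t-test and 2 after loess, quantile, common spots, the stricter foreground and in the deposited table, and was 1 to 2 when a rat was left out. The 7 called lower became 1 with normexp, 4 after loess, quantile, common spots, no filter and in the deposited table and 0 in the t-test, and ran from 3 to 9. The 3 glucocorticoid-responsive calls became 4 after loess, quantile, common spots and in the deposited table, 1 with normexp and 0 in the t-test. They were 3 when any 1 rat was left out. The 5 activity-regulated calls became 2 with normexp, common spots and the deposited table, 3 after loess, quantile, no filter and the stricter foreground and 0 in the t-test, and ran from 1 to 5.

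Same-numbered rats share a dye. With the dye removed their deviations correlated at -0.06 to -0.04, which gave no sign that the numbers pair the rats. With 2 rats per dye in each group, replicates 1 and 3 must share a value, and so must replicates 2 and 4. These correlations therefore cannot decide whether the rats are paired. With the replicate number as a block, limma called 1027 genes higher and 5903 lower, 1 clock gene higher and 2 lower, with adjusted p of 0.00586 for Dbp, 0.0112 for Cry1 and 0.0495 for Per1, and 8 clock-associated genes lower, with 1 higher. Own-number rats correlated best for 1 of 4 numbers. Clock, Nr1d2 and 2 of the 3 Per3 probes were too near background for a firm level.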
